A study of Mus musculus with 2 samples.

Results

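Amino acid transporter solute carriers were described here as every gene whose symbol places it, without a suffix letter, in the Slc1, Slc3, Slc6, Slc7, Slc36, Slc38 or Slc43 family. The rule found 61 genes among the 32285 of the matrices: 7 of Slc1, 2 of Slc3, 19 of Slc6, 15 of Slc7, 4 of Slc36, 11 of Slc38 and 3 of Slc43. It reads names alone and no measured value, and it left out 6 symbols that carry a suffix. These proteins move amino acids, and in a few cases related small molecules, across the plasma or lysosomal membrane. Some use the sodium, chloride or proton gradient to concentrate their substrate, some exchange one amino acid for another, and the Slc7 light chains reach the cell surface only when bound to an Slc3 heavy chain. In the lung, the capillary endothelium is known for clearing serotonin and noradrenaline from blood through Slc6 carriers, and lysosomal members feed the amino acid signal to the kinase complex mTORC1.

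The cells came from chimeric lungs of C57Bl mice, which had received a suspension of lung cells carrying the red fluorescent reporter tdTomato. At 6 months after the transplant, the lungs of 3 mice were dissociated and pooled, and live cells that lacked the leukocyte surface protein CD45 were sorted by the reporter. The donor group was the tdTomato-positive sort and the recipient group the tdTomato-negative sort of the same pool, and each gave 1 droplet (10x Genomics) library. The donor mouse strain, the age of the mice and any conditioning are not given in the sources used here. With 1 library per group and pooled mice there was no replicate, so no test was made and no p-value is given. Intervals are exact 95% intervals that cover counting error only.

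After filtering, 4562 donor cells (median 6089 UMIs, unique molecular identifiers that each count a captured transcript) and 3192 recipient cells (median 6381) were used. The libraries shared 816 barcodes, and in 728 of these the donor copy was smaller by more than 5-fold. The smaller copy was therefore left out. Cells were assigned to a type by UMIs of marker genes, none of them a transporter of the rule, and 84.8% of donor and 91.9% of recipient cells received a type. General capillary cells (1988 donor, 335 recipient), aerocytes (the large, Car4-high capillary cells of the alveolus, 1531 and 628) and venous cells (158 and 122) had at least 50 cells in both libraries. The arterial gate reached that number in the donor library alone (82 and 13). Lymphatic (72), alveolar type 1 (182), pericyte (503), alveolar fibroblast (806), adventitial fibroblast (68) and myofibroblast (158) gates reached it in the recipient library alone. Each of these gates except the arterial gate held UMIs of every marker of its own panel. The arterial gate had 0 UMIs of the arterial marker Dkk2 and Gja5 in 28 of 82 cells, beside Gja4 at 1344 and Efnb2 at 993 CPM (UMIs scaled to a total of 1000000 over the summed cells of a gate), so it is called the arterial gate and not arterial cells. Shared barcodes, kept as the larger copy, made up 139 of the 182 recipient alveolar type 1 cells, 259 of the 806 alveolar fibroblasts and 50 of the 68 adventitial fibroblasts. In each of these gates, cells with a shared barcode held more UMIs per cell than the others, so they weigh more in the level of the gate. The genes led by these gates and the main other carriers in them are given for cells with and without a shared barcode.

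Of the 61 transporter genes, 29 were expressed, meaning at least 10 CPM and 10 UMIs in a gate of at least 50 cells. By the same rule 36.5% of all genes were expressed. The expressed genes comprised 5 of Slc1, 1 of Slc3, 6 each of Slc6, Slc7 and Slc38, 3 of Slc36 and 2 of Slc43. Among the other 32 genes, 7 had 0 UMIs in both matrices (Slc6a3, Slc6a5, Slc6a11, Slc6a18, Slc6a21, Slc7a9 and Slc7a12), and the highest level in any such gate was 14.5 CPM, from fewer than 10 UMIs. Slc3a2, Slc38a2 and Slc38a10 were expressed in all 4 gates of the donor library and all 9 of the recipient library. Alveolar fibroblasts held the most expressed members, 19, and the highest summed level, 3076 CPM. Pericytes held 11 and the lowest sum, 961 CPM. The first 3 genes by UMIs were Slc3a2, Slc38a2 and Slc43a3 in general capillary cells and in aerocytes of both libraries, whereas Slc6a2 entered the first 3 in venous cells, Slc6a14 in alveolar type 1 cells and Slc7a10 and Slc36a2 in alveolar fibroblasts.

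**Figure D1:**
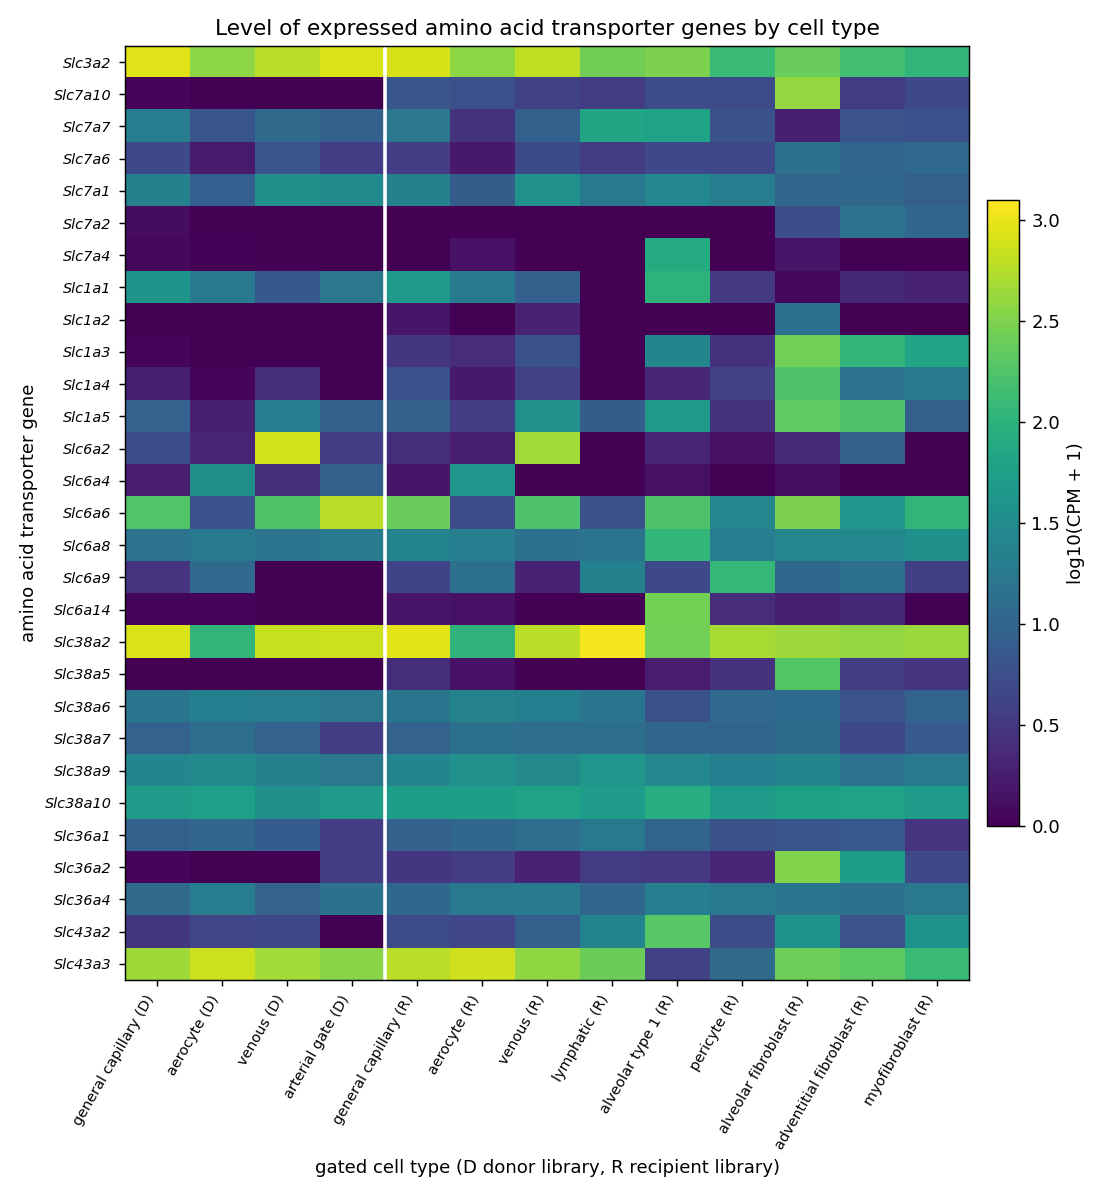
Level of the 29 expressed transporter genes (vertical axis) in each gate of at least 50 cells (horizontal axis), as log10 of CPM plus 1, with the 4 donor gates (D) left of the white line and the 9 recipient gates (R) right of it. Slc3a2, Slc38a2 and Slc38a10 are filled in every column, while Slc6a2, Slc6a14 and Slc7a10 are each bright in 1 cell type.

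Of the 24 genes that reached 20 CPM in a gate, 12 were led by 1 type, meaning at least 3-fold over the next type in each library where that type had 50 cells. Among all 10050 genes that reached 20 CPM, 12.1% were led by a type. The 12 were Slc6a2 (venous), Slc6a4 (aerocyte), Slc6a6 (arterial gate), Slc6a9 (pericyte), Slc6a8, Slc6a14, Slc7a4 and Slc43a2 (alveolar type 1), and Slc1a4, Slc7a10, Slc36a2 and Slc38a5 (alveolar fibroblast). Of all such genes, alveolar type 1 cells led 3.74%, pericytes 2.26%, alveolar fibroblasts 0.995%, aerocytes 0.826%, the arterial gate 0.348% and venous cells 0.269%. On the level of tissue classes, 7 of 23 genes were led by a class, against 14.2% of all genes at that level. Slc6a2 and Slc43a3 were led by endothelial, Slc6a9 and Slc38a5 by mesenchymal, and Slc6a14, Slc7a4 and Slc43a2 by epithelial cells. A class lead had to hold in both libraries. The donor epithelial class was 55 cells and the donor mesenchymal class 59, of which 43 were gated as pericytes and 6 as alveolar fibroblasts. A gene of alveolar fibroblasts without a class lead can therefore still be mesenchymal in the recipient library.

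**Figure D2:**
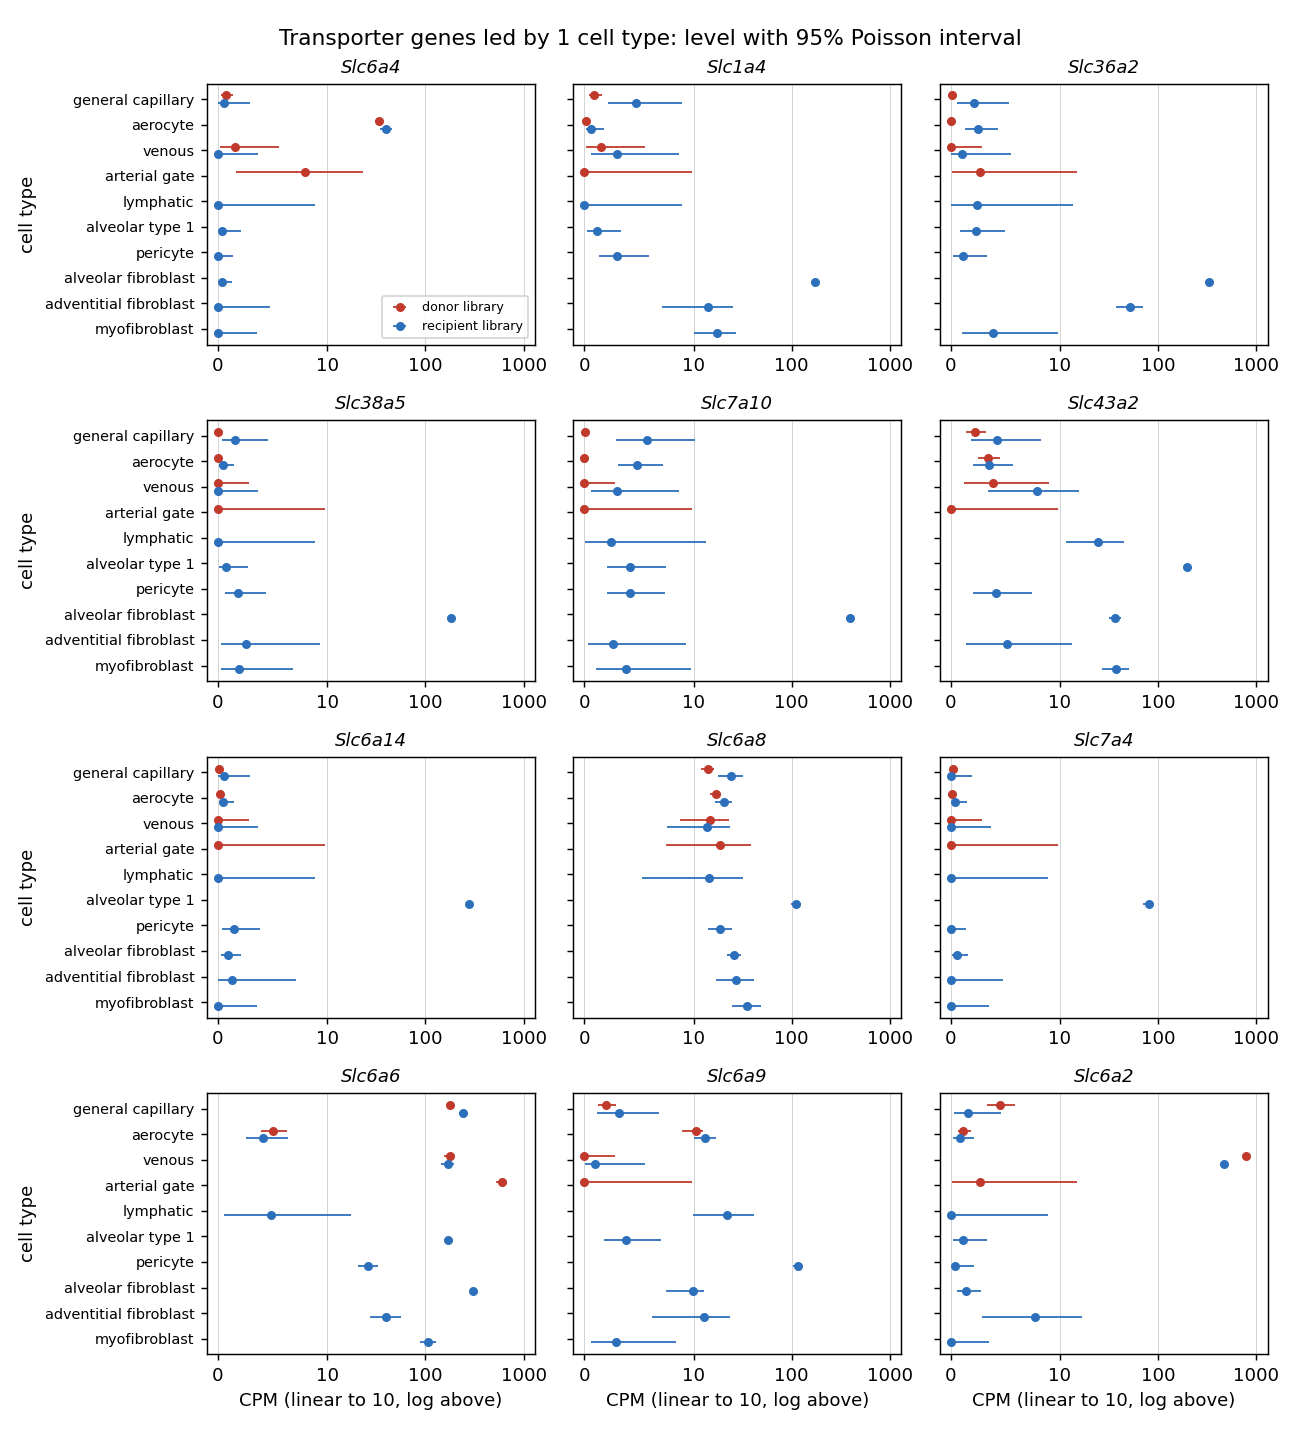
Level in CPM (horizontal axis, linear to 10 and logarithmic above) of the 12 genes led by 1 type, by gated cell type (vertical axis), for the donor (red) and recipient (blue) library, with exact 95% Poisson intervals as bars. Each panel has 1 type to the right of the others, and for Slc6a6 several types above 100 CPM stand beside the arterial gate at 599 CPM.

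The heavy chain gene Slc3a2 (chr19:8706882-8723369, mm10) was high in general capillary cells, at 899 CPM (882 to 917) in donor and 817 CPM (777 to 859) in recipient cells. The donor arterial gate stood at 828 CPM (738 to 925), and its ratio to general capillary cells did not exclude equality. It stood at 601 and 629 CPM in venous cells and at 368 and 378 CPM in aerocytes, where 90.5% and 90.1% of cells had a UMI. In recipient cells of other classes Slc3a2 lay between 108 CPM in myofibroblasts and 308 CPM in alveolar type 1 cells. In these 3 endothelial types the donor and recipient values of a type lay closer to each other than to those of the other types.

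The 6 light chain genes that pair with Slc3a2 were Slc7a5 and Slc7a8 (large neutral amino acids), Slc7a6 and Slc7a7 (exchange of cationic for neutral amino acids), Slc7a10 (small neutral amino acids) and Slc7a11 (cystine for glutamate). Their summed UMIs were far below those of Slc3a2 in blood endothelial cells. Slc3a2 UMIs outnumbered theirs 36.4-fold (32.3 to 41.1) in donor and 33.8-fold (25.3 to 46.4) in recipient general capillary cells. The ratio was 50.2 and 44.3 in aerocytes, 34.0 and 39.7 in venous cells and 77.8 (30.1 to 287), from 4 light chain UMIs, in the donor arterial gate. Slc7a10 made up 23 of the 41 light chain UMIs in recipient aerocytes and 0 in donor aerocytes, so the 2 aerocyte ratios count different light chains. It made up 11 of the 46 in recipient general capillary cells. In the recipient library it was 3.29 (2.23 to 4.99) in lymphatic cells, 4.30 in alveolar type 1 cells, 7.58 in pericytes, 7.53 in adventitial fibroblasts and 4.35 in myofibroblasts. Alveolar fibroblasts were the only gate in which the light chains outnumbered the heavy chain, with a ratio of 0.594 (0.555 to 0.635). These ratios compare UMI counts, without division by transcript length, and capture can differ between genes.

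**Figure D3:**
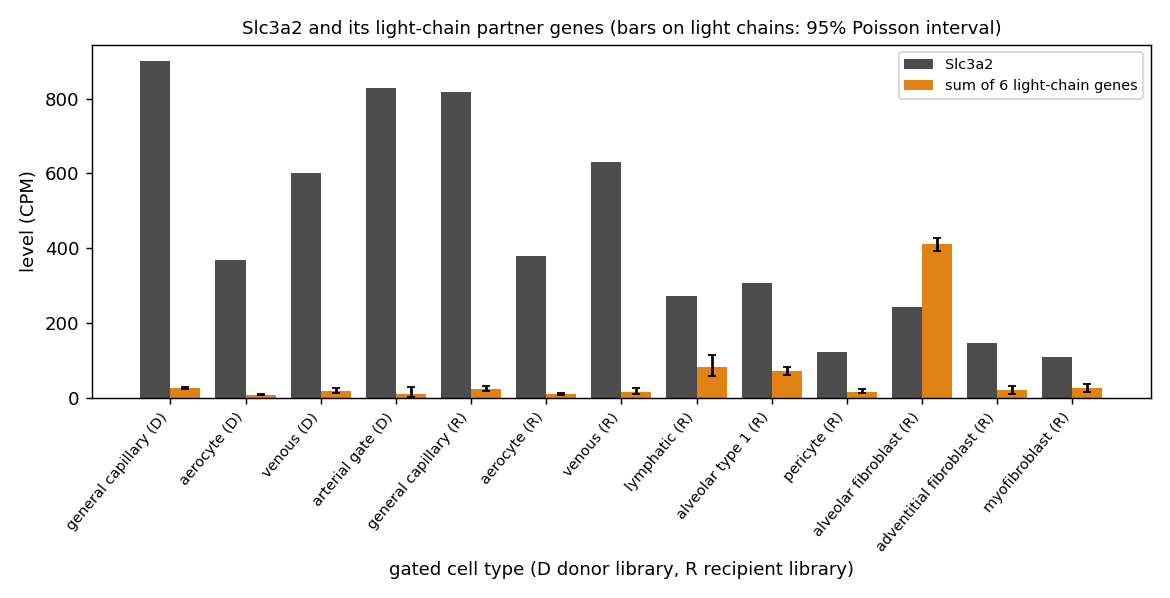
Level in CPM (vertical axis, linear from 0) of Slc3a2 (grey) and of the sum of its 6 light chain partners (orange, with exact 95% Poisson intervals) in each gate of at least 50 cells of the donor (D) and recipient (R) library. The orange bar is higher than the grey bar in alveolar fibroblasts alone, where the light chains sum to 410 CPM.

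The light chain present differed by gate. Slc7a7 was the highest of the 6 in general capillary cells, at 19.4 CPM (16.9 to 22.1) in donor and 15.7 CPM (10.6 to 22.5) in recipient cells, and in lymphatic cells (67.7 CPM, 45.0 to 97.8) and alveolar type 1 cells (62.0 CPM, 52.9 to 72.3). Alveolar type 1 cells with a shared barcode had 63.7 CPM (54.1 to 74.6) of Slc7a7 and those without one 40.8 CPM (17.6 to 80.5). In lymphatic cells Slc7a7 was 8.53-fold (3.79 to 21.7) higher than in recipient venous cells, where it stood at 7.93 CPM. Slc7a6 was the highest light chain in adventitial fibroblasts (9.02 CPM) and myofibroblasts (10.5 CPM) and reached 12.9 CPM in alveolar fibroblasts. Slc7a5 stayed at or below 0.880 CPM in the blood endothelial gates and Slc7a11 at or below 1.54 CPM, and Slc7a8 had 0 UMIs in all endothelial gates of 50 cells. Neither Slc7a5 nor Slc7a11 exceeded 4.83 CPM (2 UMIs, in lymphatic cells) in any gate of 50 cells.

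Slc7a10 (chr7:35186385-35201114) was the light chain of alveolar fibroblasts, at 394 CPM (378 to 411) with a UMI in 71.0% of cells. The next gate, recipient general capillary cells, stood at 5.77 CPM, 68.2-fold lower (38.1 to 137). Pericytes had 4.14 CPM, myofibroblasts 3.83 CPM and adventitial fibroblasts 2.58 CPM, so Slc7a10 separated alveolar fibroblasts from the other mesenchymal gates. In alveolar fibroblasts whose barcode was in the recipient library alone Slc7a10 stood at 496 CPM (471 to 522), against 283 CPM (263 to 303) in those whose barcode was also in the donor library. The 6 donor cells in this gate held 5 UMIs of Slc7a10, or 197 CPM (63.8 to 459). The neighbouring Slc7a9 on the same chromosome (chr7:35448796-35466036) had 0 UMIs.

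Of the cationic amino acid carriers, which work without a heavy chain, Slc7a1 was present at low level in every gate of 50 cells. It stood at 34.5 CPM (25.2 to 46.2) in donor and 35.7 CPM (25.0 to 49.4) in recipient venous cells, at 22.2 and 21.5 CPM in general capillary cells and at 7.41 and 7.29 CPM in aerocytes. The 3 gates thus had the same order in both libraries. Slc7a2 passed the rule only in adventitial fibroblasts (14.2 CPM, 7.07 to 25.4, from 11 UMIs). Its myofibroblast value of 9.57 CPM (10 UMIs) lay within that interval.

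Slc7a4 (chr16:17572018-17583214), a relative of the cationic carriers, was held by alveolar type 1 cells, at 79.9 CPM (69.5 to 91.5) in the recipient library. The next gate, alveolar fibroblasts, had 3 UMIs (0.531 CPM), a 150-fold difference (50.8 to 735). The 43 donor alveolar type 1 cells, too few for the rule, stood at 72.9 CPM (43.9 to 114). Recipient cells with a barcode in that library alone stood at 76.6 CPM (42.9 to 126) and those with a shared barcode at 80.2 CPM (69.3 to 92.3). These 3 intervals overlap. With every other gate counted at no less than its floor of 3 counts, the lead of Slc7a4 was 11.02-fold, and it was 2.41-fold after thinning every cell to 1500 UMIs, below the 3-fold rule. Thinning also raises the CPM of a floor of 3 counts, most in gates of few cells, so this fall is not a measure of depth alone.

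Of the sodium-coupled glutamate carriers, Slc1a1 was highest in alveolar type 1 cells, at 99.7 CPM (88.0 to 113), with 102 CPM (90.1 to 116) in those with a shared barcode and 66.4 CPM (35.3 to 113) in those without. It stood at 39.4 CPM (35.9 to 43.3) in donor and 46.2 CPM (37.0 to 56.9) in recipient general capillary cells, and at 17.6 and 17.3 CPM in aerocytes. Venous cells had 6.14 and 7.93 CPM, 6.42-fold (3.23 to 15.0) and 5.82-fold (2.83 to 13.9) below general capillary cells. Slc1a3 was held by fibroblasts, at 273 CPM (260 to 287) in alveolar fibroblasts, 104 CPM in adventitial fibroblasts and 63.2 CPM in myofibroblasts, and pericytes had 1.88 CPM. Alveolar type 1 cells held 24.7 CPM (19.1 to 31.5). Alveolar fibroblasts with a shared barcode had 239 CPM of Slc1a3 (221 to 258) and those without one 304 CPM (285 to 325). Slc1a2 reached 12.6 CPM (9.82 to 15.9) in alveolar fibroblasts, with 0 UMIs in pericytes, adventitial fibroblasts and myofibroblasts. Of these 3 genes, alveolar type 1 cells thus expressed Slc1a1 and Slc1a3, and alveolar fibroblasts Slc1a2 and Slc1a3.

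The neutral amino acid exchangers Slc1a4 and Slc1a5 were both highest in alveolar fibroblasts. Slc1a4 (chr11:20302180-20332713), an exchanger of serine, alanine and cysteine, stood there at 172 CPM (162 to 183), and the next gate, myofibroblasts, at 17.2 CPM, a 10.0-fold difference (6.29 to 16.9). Slc1a5, the carrier best known for glutamine, stood at 218 CPM (206 to 231) in alveolar and 169 CPM (141 to 200) in adventitial fibroblasts, but at 7.66 CPM in myofibroblasts and 1.88 CPM in pericytes. In the endothelium Slc1a5 was highest in venous cells, at 19.96 CPM (13.0 to 29.2) in donor and 35.7 CPM (25.0 to 49.4) in recipient cells. Alveolar fibroblasts with a shared barcode had 190.4 CPM of Slc1a5 (174 to 208) and those without one 244 CPM (226 to 262). Adventitial fibroblasts with a shared barcode had 167 CPM of Slc1a5 and the 18 without one had 179 CPM (106 to 283).

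Among the proton-coupled Slc36 carriers, Slc36a2 (chr11:55158470-55185077), a carrier of glycine, alanine and proline, stood at 327 CPM (312 to 342) in alveolar fibroblasts, with a UMI in 79.3% of cells. Adventitial fibroblasts had 51.5 CPM (36.8 to 70.2), 6.35-fold lower (4.64 to 8.92). Its neighbours on chromosome 11 did not share that level: Slc36a1 (chr11:55204350-55236330) had 5.85 CPM in alveolar fibroblasts, and Slc36a3 (chr11:55124815-55151708) had 2 UMIs in both matrices. Slc36a4 was low in all gates, between 8.45 CPM in donor venous cells and 20.2 CPM in alveolar type 1 cells. Slc36a1 passed the rule only in recipient venous cells, at 11.9 CPM (6.15 to 20.8).

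Slc38a5 (chrX:8271133-8280179), which exchanges glutamine, histidine and serine with protons, stood at 183 CPM (172 to 194) in alveolar fibroblasts. The adventitial fibroblasts that came next had 2 UMIs (2.58 CPM), a 71.0-fold difference (19.6 to 587). With gates of 0 UMIs set to 3 counts the lead was 25.2-fold, and donor endothelial gates of 50 cells had 0 UMIs. Slc1a4, Slc7a10, Slc36a2 and Slc38a5 were each also found in the 6 donor cells of the alveolar fibroblast gate, with 4, 5, 2 and 7 UMIs. In alveolar fibroblasts with a barcode in the recipient library alone the levels were 203 CPM for Slc1a4, 389 CPM for Slc36a2 and 207 CPM for Slc38a5, and with a shared barcode 139, 260.0 and 157 CPM, so all 4 genes were lower in cells with shared barcodes. Those cells also held more UMIs per cell, and the part of depth in this difference was not tested. With both copies of every shared barcode left out, the 18 remaining adventitial fibroblasts were too few for the rule, so that gate, the next one for Slc36a2 and Slc38a5, was no longer compared. The leads of Slc1a4 and Slc7a10 were then 11.5-fold and 83.0-fold. That of Slc36a2 became 95.5-fold because the gate with its next highest level was gone, and so says nothing of its stability.

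The promoters of 3 of these 4 fibroblast genes are printed because the genes were led by the same gate, and that of Slc7a11 because it is known for this motif and was nearly undetected here. Each is a RefSeq window (GRCm38.p6) of 300 bases, with 250 before and 50 after the start, read 5′ to 3′ on the gene's strand. Capitals mark matches, on either strand, to TGATGNAA, a form of the C/EBP-ATF composite element through which amino acid shortage acts on transcription.
Slc1a4, chr11:20332664-20332963, minus strand: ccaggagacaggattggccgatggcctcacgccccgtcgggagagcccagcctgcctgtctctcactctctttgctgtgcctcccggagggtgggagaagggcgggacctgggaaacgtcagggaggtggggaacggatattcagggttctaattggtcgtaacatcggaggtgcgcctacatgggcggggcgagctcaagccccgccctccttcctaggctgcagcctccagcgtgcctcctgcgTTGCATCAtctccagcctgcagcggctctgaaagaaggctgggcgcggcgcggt
Slc7a10, chr7:35186135-35186434, plus strand: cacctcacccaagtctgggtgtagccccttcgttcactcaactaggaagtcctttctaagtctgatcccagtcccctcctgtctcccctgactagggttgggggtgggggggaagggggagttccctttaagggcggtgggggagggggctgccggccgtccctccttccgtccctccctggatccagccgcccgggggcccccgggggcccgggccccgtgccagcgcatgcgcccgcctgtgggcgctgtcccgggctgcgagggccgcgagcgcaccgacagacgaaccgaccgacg
Slc38a5, chrX:8271131-8271430, plus strand: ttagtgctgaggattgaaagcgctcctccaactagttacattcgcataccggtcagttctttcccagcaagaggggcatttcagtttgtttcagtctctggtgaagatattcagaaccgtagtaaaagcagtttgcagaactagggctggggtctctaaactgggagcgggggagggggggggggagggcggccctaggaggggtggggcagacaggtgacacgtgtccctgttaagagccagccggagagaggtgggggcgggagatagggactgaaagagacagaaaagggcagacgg
Slc7a11, chr3:50443564-50443863, minus strand: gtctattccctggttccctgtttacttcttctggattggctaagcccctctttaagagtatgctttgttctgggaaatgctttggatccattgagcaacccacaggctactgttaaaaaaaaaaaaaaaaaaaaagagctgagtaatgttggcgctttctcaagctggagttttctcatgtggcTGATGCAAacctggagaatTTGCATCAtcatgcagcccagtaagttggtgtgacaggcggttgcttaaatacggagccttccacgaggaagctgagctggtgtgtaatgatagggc
The motif was in 3.97% of all 32851 windows (1304 windows) and in 5 of the 64 windows of transporter genes. These belonged to 4 of the 43 genes that had a window: Slc1a4, Slc6a21, Slc7a7 and Slc7a11. Slc7a11 held 2 matches, which did not overlap. Slc7a10 and Slc38a5 held none, which says only that these letters are not in the window. The windows of the fibroblast genes differed in base composition: Slc7a10 was 70.7% G or C with 24 CpG dinucleotides, Slc1a4 65.0% with 21, and Slc38a5 56.0% with 10, beside a median of 7 CpG over all windows. The window of Slc7a11 was 44.7% G or C with 4 CpG.

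The carriers of the Slc6 family use sodium and chloride, and 3 of them were led by different vascular gates. Slc6a2 (chr8:92960079-93001667), the noradrenaline transporter, was a venous gene. It stood at 779 CPM (732 to 829) in donor and 463 CPM (422 to 507) in recipient venous cells, with a UMI in 60.8% (52.7 to 68.4) and 54.1% (44.8 to 63.2) of cells. At 1500 UMIs per cell the shares were 41.7% and 32.8%. General capillary cells had 4.49 and 1.57 CPM, with a UMI in 1.86% and 0.895% of cells, and the share in recipient alveolar type 1 cells, with far more UMIs per cell, was 1.65%. Slc6a2 in venous cells was 174-fold (131 to 235) over the next gate in the donor and 59.9-fold (27.3 to 164) in the recipient library. Lymphatic cells had 0 UMIs, at least 63.9-fold lower than recipient venous cells by a floor of 3 counts over the gate.

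Slc6a4 (chr11:76998603-77032340), the serotonin transporter, was led by aerocytes. It stood at 34.0 CPM (31.0 to 37.2) in donor and 40.2 CPM (34.7 to 46.3) in recipient aerocytes, with a UMI in 19.7% and 21.7% of cells. General capillary cells had 0.704 CPM (8 UMIs) and 0.525 CPM (1 UMI), with a UMI in 0.402% and 0.298% of cells. The median depth of aerocytes was 8773 and 7569 UMIs and that of general capillary cells 5419.5 and 5441. The ratio of Slc6a4 between these gates was 48.3-fold (24.3 to 112) in the donor and 76.6-fold (13.6 to 3040) in the recipient library. The next gate in the donor library was the arterial gate, at 7.99 CPM from 3 UMIs, a ratio of 4.25 (1.45 to 20.7). Thinned to 1500 UMIs per cell, 4.67% and 5.58% of aerocytes had a UMI. The lead over the next gate, with gates of 0 UMIs set to 3 counts, was then 1.34-fold. Thinning shrinks the total of a gate and so raises the CPM of these 3 counts, most in gates of few cells. The fall in the lead of Slc6a4 is therefore not a measure of depth alone.

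Slc6a6 (chr6:91684053-91759066), the taurine transporter, was low in aerocytes and high in the other blood endothelial gates. It stood at 599 CPM (523 to 683) in the donor arterial gate, at 180.0 CPM (172 to 188) in donor and 245 CPM (223 to 268) in recipient general capillary cells, at 177 and 169 CPM in venous cells, and at 5.01 (3.90 to 6.34) and 4.17 CPM (2.54 to 6.43) in aerocytes. Arterial-gate cells with Gja5 had 582 CPM (465 to 720) and those without it 610 CPM (513 to 719). The 13 recipient cells of the gate had 1385 CPM (1141 to 1665). The lead of the arterial gate over general capillary cells was 3.33-fold (2.89 to 3.82), 2.47-fold without the 3 cells richest in Slc6a6 and 2.36-fold after thinning, both below the 3-fold rule. It was also lost under the stricter gate and when a Gja5 UMI was required, which left 28 cells. All donor gates of 50 cells were endothelial, so the lead was not set against other classes. Outside the blood endothelium, Slc6a6 stood at 308 CPM in alveolar fibroblasts, 169 CPM in alveolar type 1 cells and 4.83 CPM in lymphatic cells. Of 20 transporter genes tested between the arterial gate and donor general capillary cells, Slc6a6 was the 1 called higher (3.77% of all genes) and Slc1a1 the 1 called lower (3.33%).

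Slc6a9 (chr4:117834506-117875198), which carries glycine, was led by pericytes, the contractile cells on capillaries. It stood at 115 CPM (103 to 129) in the 503 recipient and 141 CPM (96.8 to 197) in the 43 donor pericytes. The next gate in the recipient library, lymphatic cells, had 21.7 CPM (9.94 to 41.3), and alveolar fibroblasts had 9.92 CPM. Pericytes with a barcode in the recipient library alone had 117 CPM of Slc6a9 and those with a shared barcode 104 CPM. In the endothelium, Slc6a9 was higher in aerocytes, at 10.6 and 13.1 CPM, than in general capillary cells, at 1.94 and 3.15 CPM.

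Slc6a14 and Slc6a8 were led by alveolar type 1 cells, the flat gas-exchange cells of the alveolus. Slc6a14 (chrX:21714896-21742355), a carrier of nearly all neutral and cationic amino acids, stood at 280 CPM (260 to 301) in recipient and 234 CPM (179 to 301) in the 43 donor alveolar type 1 cells. The next gate of 50 cells, pericytes, held 4 UMIs, and with every other gate at no less than 3 counts the lead was 38.6-fold. Recipient cells with a barcode in that library alone had 189 CPM (133 to 260) of Slc6a14 and those with a shared barcode 287 CPM (266 to 309). Slc6a8 (chrX:73673150-73682502), the creatine transporter, stood at 111 CPM (98.7 to 125) in recipient and 92.1 CPM (59.0 to 137) in donor alveolar type 1 cells, and at 35.4 CPM in the next gate, myofibroblasts. Recipient cells with and without a shared barcode had 111 and 117 CPM of Slc6a8. Its lead of 3.14-fold (2.22 to 4.54) was 2.84-fold when mitochondrial, ribosomal protein and haemoglobin genes were left out of the scaling. With both copies of shared barcodes left out, 43 alveolar type 1 cells remained, fewer than the rule asks for.

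Slc38a2 (chr15:96687392-96699730), a sodium-coupled carrier of neutral amino acids that many cells raise when amino acids run short, separated the capillary gates. It stood at 850 CPM (834 to 868) in donor and 945 CPM (902 to 990) in recipient general capillary cells, but at 107 CPM (102 to 113) and 102 CPM (92.8 to 111) in aerocytes. A UMI was found in 93.2% and 92.5% of general capillary cells and in 46.7% and 37.7% of aerocytes, and at 1500 UMIs per cell in 65.4% and 66.2% against 13.1% and 12.9%. Lymphatic cells had 1102 CPM (1003 to 1208), 1.84-fold (1.62 to 2.08) above recipient venous cells at 599.8 CPM. Pericytes stood at 488 CPM and the 3 fibroblast gates between 397 and 442 CPM. The neighbours of Slc38a2 on chromosome 15, Slc38a1 (chr15:96571418-96642913) and Slc38a4 (chr15:96994820-97055956), were not expressed, with 86 and 67 UMIs in both matrices.

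Of the lysosomal and less studied Slc38 members, none was led by a type. Slc38a9, the lysosomal arginine sensor upstream of mTORC1, lay between 14.2 CPM in adventitial fibroblasts and 41.1 CPM (23.9 to 65.8) in lymphatic cells. Slc38a10 lay between 35.3 CPM in donor venous cells and 85.2 CPM (74.4 to 97.2) in alveolar type 1 cells. Slc38a6 was highest in aerocytes, at 20.8 and 23.5 CPM, and lowest in alveolar type 1 cells, at 4.95 CPM. Slc38a7, a lysosomal glutamine carrier, reached 12.1 and 12.9 CPM in aerocytes.

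Slc43a2 and Slc43a3 divided between epithelium and endothelium. Slc43a2 (chr11:75531694-75577575), a facilitative carrier of large neutral amino acids, stood at 198 CPM (181 to 215) in recipient and 146 CPM (103 to 200) in the 43 donor alveolar type 1 cells. The next gate, myofibroblasts, had 37.3 CPM, a 5.29-fold difference (3.82 to 7.53). Recipient alveolar type 1 cells with and without a shared barcode had 197 and 204 CPM of Slc43a2. Slc43a3 (chr2:84936579-84958509), known as a carrier of purine nucleobases rather than amino acids, stood at 721 CPM (707 to 735) in donor and 755 CPM (730.1 to 779) in recipient aerocytes, at 452 and 599 CPM in general capillary cells and at 3.04 CPM (8 UMIs) in alveolar type 1 cells. It was 248-fold (126 to 574) lower in alveolar type 1 cells than in the aerocytes that they adjoin. Fibroblast gates held 259.9, 207 and 123 CPM of Slc43a3 (alveolar, adventitial and myofibroblast), and pericytes 10.9 CPM. The adjacent Slc43a1 (chr2:84838850-84863594) was not expressed, with 99 UMIs in both matrices.

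The capillary gates were compared directly within each library. A gene was called apart when it had at least 20 UMIs over both gates, was at least 1.5-fold apart, and had an interval that excluded equality. Of 18 transporter genes tested in both libraries, 3 were higher in aerocytes than in general capillary cells in both (Slc6a4, Slc6a9 and Slc36a4) against 10.1% of all genes. In both libraries 7 were lower (Slc1a1, Slc1a5, Slc3a2, Slc6a6, Slc7a1, Slc7a7 and Slc38a2) against 15.7% of all genes, and 0 were called in opposite directions. Slc6a6 was 35.9-fold lower (28.3 to 46.4) in donor and 58.7-fold lower (37.6 to 97.1) in recipient aerocytes, and Slc38a2 7.94-fold (7.52 to 8.39) and 9.30-fold (8.41 to 10.3) lower. Slc3a2 was 2.44-fold and 2.16-fold lower. Members tested in 1 library alone are not in these counts. The median log2 ratio over the 22 members tested in the donor library was 0.16 and over the 19 tested in the recipient library -0.24, beside -0.10 and -0.03 over all genes.

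**Figure D4:**
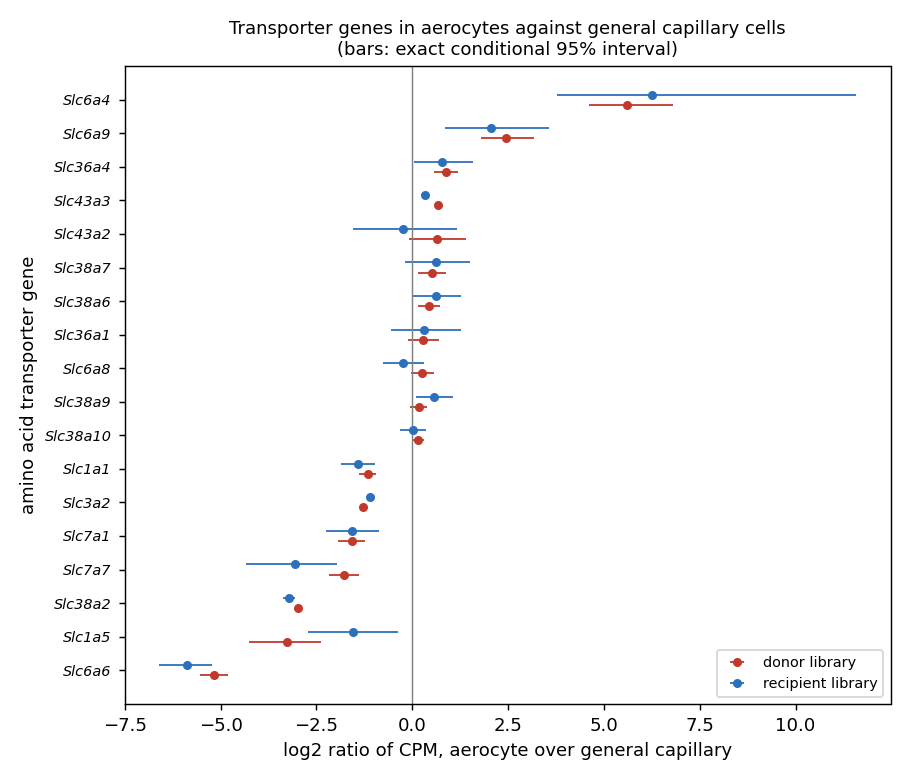
Log2 ratio of CPM in aerocytes over general capillary cells (horizontal axis) for the 18 transporter genes tested in both libraries (vertical axis), in the donor (red) and recipient (blue) library, with exact conditional 95% intervals as bars. Donor and recipient points of a gene lie on the same side of 0 for each called gene, from Slc6a4 at the right to Slc6a6 at the left.

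Venous cells were set against the same general capillary cells, so this comparison shares them with the previous one. Of 16 genes tested in both libraries, 3 were higher in venous cells in both (Slc1a5, Slc6a2 and Slc7a1), against 4.82% of all genes, and 1 was lower (Slc1a1), against 4.53%. Slc1a5 was 2.39-fold higher in donor and 4.53-fold higher in recipient venous cells. In the recipient library, lymphatic cells differed from venous cells in 7 of 13 genes tested: Slc7a7 and Slc38a2 were higher (15% of all genes) and Slc1a5, Slc3a2, Slc6a2, Slc6a6 and Slc43a3 lower (14.9%). Slc6a6 stood 34.9-fold lower in lymphatic cells (9.51 to 290), from 2 UMIs.

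The alveolar type 1 cell and the aerocyte face each other across the thinnest part of the alveolar wall. Of 22 transporter genes tested between them in the recipient library, 12 were higher in alveolar type 1 cells (23.4% of all genes) and 4 in aerocytes (26.7%). Beside the epithelial genes above, the 12 comprised the glutamate carriers Slc1a1 (5.77-fold, 4.49 to 7.48) and Slc1a3, the exchangers Slc1a5 and Slc7a7, and Slc6a6 (40.5-fold, 25.9 to 66.9), Slc7a1, Slc38a2 and Slc38a10. The 4 in aerocytes were Slc6a4, Slc6a9, Slc38a6 and Slc43a3. The median log2 ratio of the members was 1.04, beside -0.08 over all genes. Of the 182 recipient alveolar type 1 cells 139 had a shared barcode, and the gate had a median of 14469 UMIs, against 7569 in aerocytes, and the part of either in these ratios was not tested.

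Alveolar fibroblasts were set against the other mesenchymal gates of the recipient library, in 3 comparisons that share these cells. Against pericytes, 13 of 24 tested genes were higher (22.4% of all genes) and 2, Slc6a9 and Slc7a1, were lower (21.5%). The 13 included all 4 tested glutamate and neutral amino acid carriers Slc1a2 to Slc1a5, Slc6a6 (11.7-fold), Slc36a2 (290-fold, 99.1 to 1407) and Slc43a3. Against alveolar fibroblasts, adventitial fibroblasts were lower in 9 of 24 genes (16% of all genes) and higher in 1, Slc7a2 (11.9%). Myofibroblasts were lower in 11 of 24 (19.2%) and higher in 0 (12.2%). Slc3a2 was 1.99-fold lower in pericytes than in alveolar fibroblasts by UMIs, 1.67-fold lower in adventitial fibroblasts and 2.25-fold lower in myofibroblasts. Slc1a5 was 28.5-fold lower (14.4 to 66.1) in myofibroblasts but not called in adventitial fibroblasts, at 169 against 218 CPM. The median log2 ratios of the members were 1.39 against pericytes, -0.63 in adventitial fibroblasts and -0.92 in myofibroblasts, beside -0.07, -0.15 and -0.16 over all genes.

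Donor and recipient cells of the same type were compared in the 3 types with 50 cells in each library. In general capillary cells 1 of 20 tested transporter genes was apart, against 9.02% of all genes. This was the creatine transporter Slc6a8, at 14.0 CPM (11.9 to 16.3) in donor and 24.1 CPM (17.7 to 32.2) in recipient cells, 1.73-fold (1.21 to 2.41) lower in donor cells. The median log2 ratio of donor over recipient was 0.02 for the members and -0.01 for all genes. Slc6a8 did not pass the rule after thinning to 1500 UMIs, with a log2 ratio of -0.80 against -0.79 from all UMIs.

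In aerocytes 3 of 21 tested genes were apart, against 5.54% of all genes. Slc7a7 was 3.02-fold (1.51 to 6.85) higher in donor aerocytes, at 5.66 CPM (78 UMIs) against 1.87 CPM (9 UMIs). General capillary markers, which come from a type with more Slc7a7, summed to 486 CPM in donor and 417 CPM in recipient aerocytes, with all 5 detected in both, and their part in the difference was not tested. Slc1a5 was 3.11-fold (1.31 to 7.45) lower in donor aerocytes, at 0.871 CPM (12 UMIs) against 2.71 CPM (13 UMIs). Slc7a10 had 0 UMIs in donor and 23 in recipient aerocytes (4.79 CPM), at least 22.0-fold lower in donor cells by a floor of 3 counts over the gate. Slc7a10 and Slc1a5 are genes of alveolar fibroblasts, which were 806 cells in the recipient and 6 in the donor library. All 7 alveolar fibroblast markers were detected in aerocytes of both libraries, and they summed to 10.4 CPM in donor and 97.9 CPM in recipient aerocytes. Slc7a10 in recipient aerocytes was at 1.22% of its fibroblast level, within the range of the fibroblast markers Ces1d (0.569%) and Npnt (1.35%). The part of RNA from fibroblasts in the aerocyte differences of Slc7a10 and Slc1a5 was not tested. Free RNA was taken as the summed profile of all deposited barcodes of a library, since no profile of empty droplets was used. With it subtracted at 5% of a gate's UMIs, Slc7a10 and Slc1a5 left no value that could be tested, and Slc7a7 was called. The 5% was a fixed setting and not an estimate from these cells. Whether low counts such as these remain depends on it, so their loss says nothing of where they came from.

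In venous cells 3 of 15 tested genes were apart, against 7.87% of all genes. Slc6a2 was 1.68-fold (1.51 to 1.88) higher in donor cells. The 3 donor cells with most Slc6a2 held 186 of its 1015 UMIs and the 3 such recipient cells 109 of 467, and Slc6a2 was still called without them. Some markers of the venous gate also differed between the libraries. Vcam1 stood at 776 CPM in donor and 1611 CPM in recipient venous cells, and Selp at 232 and 561 CPM. Prss23 (2647 and 3496 CPM), Nr2f2 (183 and 278 CPM) and Car8 (228 and 305 CPM) were higher in recipient cells too. The intervals of Vwf (3853 and 3664 CPM) and Amigo2 (194 and 217 CPM) overlapped. The part of these markers in the difference in Slc6a2 was not tested. Slc1a5 (19.96 against 35.7 CPM) was 1.79-fold (1.05 to 3.08) lower in donor venous cells. Of 7 alveolar fibroblast markers, 4 (Tcf21, Ces1d, Itga8 and Fgfr4) were at 0 in donor venous cells, and all 7 were detected in recipient ones. The markers summed to 86.0 and 188 CPM, of which Limch1 made up 76.0 and 88.2 CPM. The part of these markers in the Slc1a5 difference was not tested. With free RNA subtracted Slc1a5 missed the rule, at a log2 ratio of -0.72 against -0.84. It was also not called with doublets kept, at a count minimum of 100, without the 3 richest cells, or with cells thinned to 1500 UMIs. Slc38a10 (35.3 against 59.5 CPM) was 1.68-fold (1.13 to 2.53) lower, a log2 ratio of -0.75 that was -0.45 and missed the rule when no cells were filtered. Under the stricter gate, Slc6a2 was the 1 gene called. The arterial gate had too few recipient cells for this comparison.

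**Figure D5:**
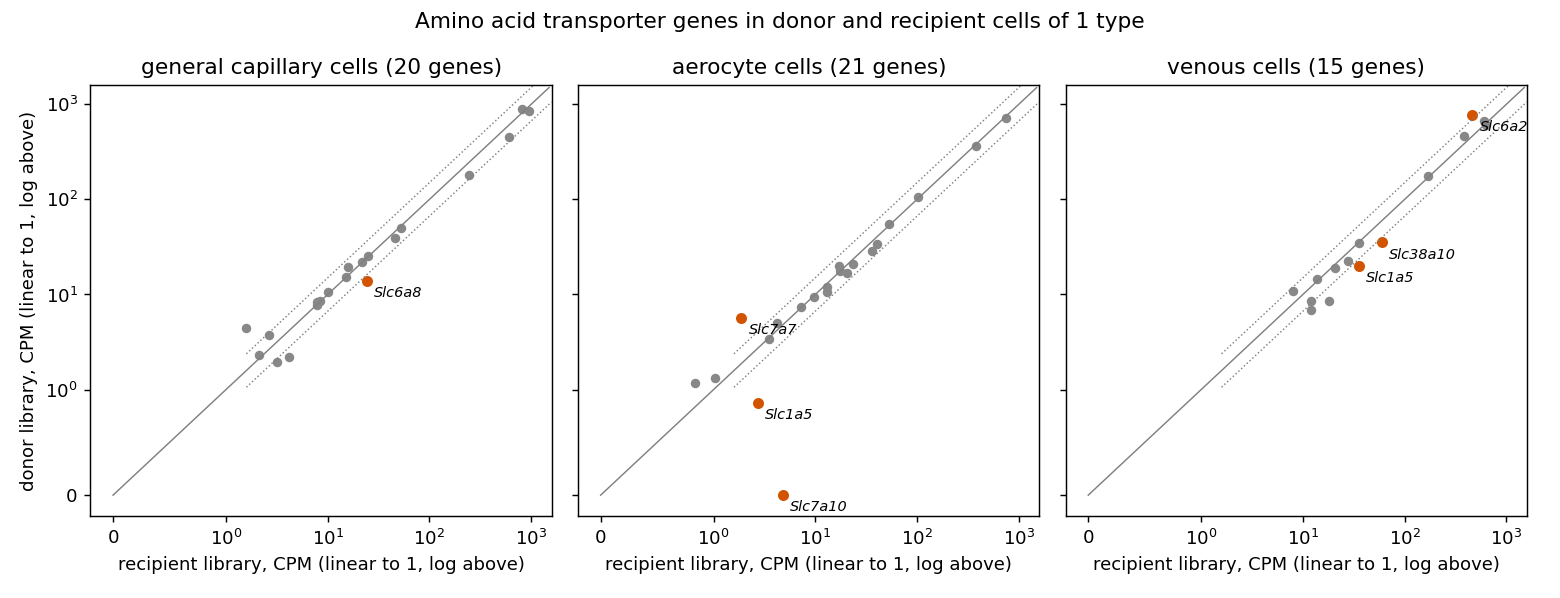
CPM of each tested transporter gene in donor cells (vertical axis) against recipient cells (horizontal axis) for general capillary, aerocyte and venous cells, on axes linear to 1 and logarithmic above, with called genes in orange and dotted lines at 1.5-fold. Most points lie between the dotted lines, and the called genes are Slc6a8 in general capillary cells, Slc1a5, Slc7a7 and Slc7a10 in aerocytes, and Slc1a5, Slc6a2 and Slc38a10 in venous cells.

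Genes around the transporters were described from 8 lists. In general capillary cells 9 list genes were called between the libraries, where 9.02% of all tested genes were called. Of 13 tested genes of the ATF4 response, the programme that answers amino acid shortage, Chac1 was higher in donor cells (15.1 against 8.40 CPM) and Asns (23.2 against 35.2 CPM), Sesn2 (7.04 against 12.1 CPM) and Nupr1 (0.792 against 7.35 CPM) were lower. The list median log2 ratio was 0.12, beside -0.01 over all genes. Nupr1 stood at 696 CPM in alveolar fibroblasts. Fibroblast markers summed to 70.7 CPM in donor general capillary cells (6 of 7 detected, Fgfr4 at 0) and 163 CPM in recipient ones (7 of 7). Of these sums the marker Limch1 made up 66.3 and 75.6 CPM, so the other markers differed more between the libraries than the sums. The part of these markers in the Nupr1 difference was not tested. Castor1, a cytosolic arginine sensor, was 1.76-fold (1.18 to 2.74) higher in donor cells and was the 1 called of 13 tested genes of amino acid sensing by mTORC1. Of 6 genes of arginine and nitric oxide metabolism, Asl (14.1 against 8.40 CPM) was higher and Nos2 (4.14 against 9.97 CPM) lower. Slc15a2, a peptide carrier outside the rule, was 5.14-fold (3.53 to 7.46) lower in donor cells, at 5.72 against 29.4 CPM, and Cdo1, a taurine-pathway enzyme with 1055 CPM in alveolar fibroblasts, was lower too (1.58 against 8.40 CPM), beside the same difference in fibroblast markers. None of 7 glutamine and glutamate enzymes, 6 glutathione genes and 4 monoamine genes was called. The genes with the highest level in their lists were otherwise spread over gates. The ATF4 list had Cebpb at 1445 CPM in alveolar fibroblasts and Atf4 at 620.3 CPM in the arterial gate. The glutathione list had Gpx4 at 1656 CPM in alveolar type 1 cells and Gpx1 at 434 CPM in myofibroblasts. Ckb, a creatine kinase, stood at 513 CPM in pericytes, and Ddah2, of the arginine and nitric oxide list, at 475 CPM in donor general capillary cells. Oat, an ornithine enzyme, stood at 393 CPM in adventitial fibroblasts, Lamtor1, a lysosomal anchor of mTORC1, at 189 CPM in donor aerocytes and the peptide carrier Slc15a4 at 95.5 CPM in alveolar type 1 cells.

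The lists also placed the capillary transporters beside the enzymes that act on their substrates. Maoa, which degrades serotonin and noradrenaline, was 3.80-fold (3.49 to 4.14) lower in donor and 3.83-fold (3.23 to 4.55) lower in recipient aerocytes than in general capillary cells, at 51.3 and 46.9 against 195 and 179.5 CPM, the opposite order to Slc6a4. Of 6 tested glutathione genes, 5 were higher in donor and 3 in recipient aerocytes and 0 lower in either, against 14.8% and 14.1% of all genes called higher. Named after their values were seen, Gclc was 2.79-fold and 2.42-fold higher and Gsr 1.96-fold and 1.73-fold higher. Of the ATF4 list, 2 of 12 tested genes were higher and 6 lower in donor aerocytes, and 2 of 11 were higher and 3 lower in recipient aerocytes, against 25.8% and 19.7% of all genes called lower. Prodh, which degrades proline and was also named after its values were seen, was 16.4-fold (12.03 to 22.9) and 16.1-fold (8.91 to 31.5) lower in aerocytes.

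Some members share their position with other genes, and the use of strand in the counting is not given in the sources used here. Slc1a1, Slc6a9, Slc7a4, Slc7a7 and Slc7a10 overlap a protein-coding gene on the opposite strand (4430402I18Rik, Ccdc24 and B4galt2, P2rx6, Oxa1l and Lrp3), so reads of those genes cannot be told apart from theirs without strand. Which transcript end the libraries read is not given either.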

How the data were processed

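The deposited values were UMI counts per gene and barcode, made by the authors with Cell Ranger, version 4.0.0 per the file headers and the submitters' processing notes and 3.0.1 per the labels' protocol, on mm10. The filtered matrices of both libraries were used as deposited, and the depth was 37997269 UMIs in 6319 donor barcodes and 26201315 in 3784 recipient barcodes. Barcodes beyond 3 median absolute deviations in genes, UMIs or mitochondrial share were left out, then those with the highest Scrublet scores (301 donor and 109 recipient barcodes), then the smaller copy of each shared barcode. Scrublet's own threshold called 2 and 135 barcodes and was not used. Cells were gated by marker UMIs in 2 steps, class and type, and 50 cells were needed for a gate to be used.

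Counts were summed per library and gate and scaled to CPM. Levels have exact Poisson, shares exact Clopper-Pearson and ratios exact conditional intervals, and reads of 1 pool are not replicate animals, so no model was fitted. A gene with 0 counts was set at a floor of 3 counts. Named genes were all expressed transporters, all that were led or called, and from each of the 8 pathway lists those called in general capillary cells and 1 or 2 of the highest in level; others are said to be named after their values were seen. The transporters, gene lists and comparisons were chosen with earlier results of these data known, and the gate thresholds after marker UMIs were seen. The split of the arterial gate by Gja5 was added after seeing the data. The code for the ratio intervals was run on simulated Poisson counts. These hold no variation between cells or mice, so they say nothing of how well the intervals fit the data. Alternatives covered the gate, shared barcodes, cell filter, doublets, scaling, count minimum, single cells, free RNA and depth. Gene positions came from the annotation GENCODE M21. Python 3.11.15, numpy 2.4.6, pandas 2.3.3, scipy 1.17.1, scanpy 1.11.5 and matplotlib 3.10.9 were used. A result for 1 gene of the pathway lists is not reported here.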

Additional observations from a re-analysis of the deposited data

Results flagged for a closer look

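Alveolar type 2 cells, the surfactant-producing epithelium, entered no comparison, since only 21 recipient and 6 donor cells were gated, and 19 of the 21 and all 6 had barcodes shared by the libraries. A few transporters that passed no expression rule in other gates had values there above the level that a count of 0 allows, though with fewer than the 10 UMIs that the rule asks for. In the recipient cells, where that limit was 7.76 CPM, Slc6a15 stood at 12.9 CPM (5 UMIs) and Slc38a4 at 18.1 CPM (7 UMIs). Slc7a5, Slc7a8 and Slc7a11, light chains that pair with Slc3a2, each stood at 10.4 CPM (4 UMIs) there. In the donor cells, with a limit of 18.7 CPM, Slc7a8 stood at 24.9 CPM (4 UMIs). The 95% intervals of all 6 values include the limit (for Slc38a4, 7.28 to 37.3 CPM), and Slc38a4 stood at 14.5 CPM in lymphatic cells, so these values do not set the cells apart.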

How the results depend on the processing

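No paired analysis was possible because each group was 1 library and the labels give no replicate numbers. Where a single gene still had a value, 185 values kept their side of the rule and 12 did not. Some of the 185 could not change, so the tally is not a measure of stability. A lead of 2-fold or no count minimum cannot undo a call made under the stricter setting. The Gja5 gate cannot alter the lead of a gate used in the recipient library alone. Of the summary counts, 67 stayed within 1.5 times and 15 moved, and none reversed. Transporters led by a class fell from 7 to 3 with cells thinned to 1500 UMIs. Thinning raises the CPM of the floor of 3 counts, most in small classes such as the donor epithelial (55 cells) and mesenchymal (59 cells) ones. The fall is therefore not a measure of depth alone, and the part of the floor in it was not tested. Those apart between libraries in general capillary cells numbered 1, against 3 with doublets kept, 6 with no count minimum, 2 without the 3 richest cells and 0 thinned. In aerocytes they numbered 3, against 6 with doublets kept, 5 with no minimum, 0 at a minimum of 100, 1 without the 3 richest cells, 1 with free RNA subtracted and 0 thinned. In venous cells 3 became 1 under a stricter gate and 1 thinned, Slc6a2 in both. The 9 pathway genes became 4 under the stricter gate and 3 thinned. With both copies of shared barcodes left out 11 genes were led, 8 of them among the 12; Slc6a8, Slc6a14, Slc7a4 and Slc43a2 were lost because the alveolar type 1 gate then held fewer than 50 cells. Not in those totals are calls that left no value: in aerocytes Slc1a5 and Slc7a10 at a minimum of 100, without the 3 richest cells, with free RNA subtracted and thinned, Slc7a7 at a minimum of 100 and thinned, and the Slc6a6 lead under the stricter and Gja5 gates. The venous call of Slc1a5 at a minimum of 100 left no value either. For the other changes the cause was not tested. Depth limits the low genes: those with 0 counts can be bounded only by 3 counts of a gate's total.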
